A study of Mus musculus with 8 samples.

Results

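Mast cells and basophils are blood-derived cells that store proteases and histamine in their granules and carry the high-affinity receptor for IgE on their surface. When antigen crosslinks the IgE held by that receptor, the granules are released and lipid mediators and cytokines are made. Mast cells depend on the receptor tyrosine kinase Kit, basophils expand in response to IL-3, and the transcription factor GATA2 is needed for both lineages. Genes of this kind are not part of the usual profile of Tregs, the CD4+ T cells that carry Foxp3 and restrain immune responses.

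Here 10 genes of these cells were followed in Tregs, namely Cpa3, Cma1, Ctsg, Mcpt8 and Hdc for the granule, Fcer1a and Ms4a2 for the IgE receptor, Il1rl1 and Kit for 2 cytokine and growth factor receptors, and Gata2 for the transcription factor. They were picked by symbol, with their counts in these same libraries already known, so that every difference between the groups given for them is a description and has no test. All 10 were among the 28239 gene symbols of the count table. All 10 also reached the level required for testing, 2 CPM (counts divided by the library's total and put on a common scale) in at least 4 of the 8 libraries. For 7 of them the WT libraries alone did not reach it, and Cma1, Hdc, Ms4a2 and Il1rl1 had 0 WT libraries at that level, so these 4 passed only through the other group.

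The libraries came from 4 samples labelled Alox15-/- and 4 labelled WT, all on a C57BL/6 background. Naïve CD4+ T cells were drawn from mouse spleens by immunomagnetic negative selection and turned into Tregs over 2 days of culture, in which beads against CD3 and CD28 were given at 1 per cell together with TGF-β at 5 ng/ml and IL-2 at 100 U/ml. Mice of the study were 10 to 12 weeks old and of both sexes, the sex behind each library is not given in the sources used here, and the deletion of Alox15, which codes for a lipoxygenase, is carried by every cell of the Alox15-/- animals and not by T cells alone. These animals came from another supplier than the WT mice, and the genotype and the colony cannot be told apart. The study counts the Alox15-/- replicates as mice, but the labels do not say whether the 4 samples of a group were separate animals, and if they were not, p-values measure technical spread only.

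MACE-seq, which counts tags near the 3′ ends of transcripts, gave between 3723151 and 9538962 counts per library. Values below are CPM scaled by the TMM method, with the mean ± SD over 4 libraries. Over 12700 tested genes, edgeR's quasi-likelihood test at an adjusted p of 0.05 placed 133 (1.05%) above WT and 25 (0.197%) below it in the labelled group, 158 in all, and the median log2 fold change was -0.0075. Without the labelled library 1, 2 or 3 or the WT library 2 the 158 became 95, 86, 93 and 105, and with testing from 3 libraries in place of 4 the first 3 of these counts were 125, 108 and 116. The targeted gene went against its label. Alox15 measured 70.5, 69.2, 63.7 and 65.3 CPM in the libraries labelled Alox15-/- and 1.88, 2.56, 7.77 and 9.02 CPM in the WT libraries. Which part of the gene is deleted is not given in the sources used here, so a 3′ tag does not check the allele, and the group is called by its label throughout. If the labels of the groups were exchanged, every direction given here would turn round, which was not tested. Genes listed as Treg markers were present, with the summed level of 6 (Foxp3, Il2ra, Ctla4, Ikzf2, Tnfrsf18 and Ikzf4) at 1770 to 1923 CPM in the labelled group and 1812 to 2030 CPM in WT. Such a sum is led by its most abundant genes and does not give the level of Foxp3 alone.

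The 10 genes lie on 7 chromosomes. On GRCm38, Cma1 (chr14:55941451-55944675), Mcpt8 (chr14:56082166-56085273) and Ctsg (chr14:56099881-56102574) share a stretch of chromosome 14, and Fcer1a (chr1:173221284-173227214) and Il1rl1 (chr1:40429570-40465415) are far apart on chromosome 1. Cpa3 is at chr3:20215620-20242181, Hdc at chr2:126593667-126619299, Ms4a2 at chr19:11615523-11623719, Kit at chr5:75574916-75656722 and Gata2 at chr6:88193891-88207032. Kit, Il1rl1 and Gata2 are on the plus strand and the other 7 genes on the minus strand.

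Because GATA2 is itself among the genes, their promoters were searched for the letters of the GATA motif, spelled AGATAA, or the same word with T as its first letter, G as its last letter or both, on either strand. RefSeq promoters of GRCm38.p6, running from 250 bases before to 50 bases after the gene start, were found for all 10 genes. A match was present for 6 of the 10 (60.0%), counting any of a gene's promoters, against 33.0% of 27025 genes with a promoter, 21.7% of the 8629 tested genes among them and 29.8% of all 32851 promoters. Il1rl1 had 5 matches in the promoter at its annotated start, Ms4a2 had 3, and Cpa3, Cma1, Hdc and Fcer1a had 1 each. Ctsg, Mcpt8, Kit and Gata2 had none of these letters in their windows, which says nothing about the factor. The 250 bases before the start are shown for the IgE receptor chains Ms4a2 (chr19:11623720-11623969, minus strand) and Fcer1a (chr1:173227230-173227479, minus strand), for the receptor gene with most matches, Il1rl1 (chr1:40429320-40429569, plus strand), and for the granule gene Cpa3 (chr3:20242182-20242431, minus strand), 5′ to 3′ along each gene with matches in capitals.
Ms4a2: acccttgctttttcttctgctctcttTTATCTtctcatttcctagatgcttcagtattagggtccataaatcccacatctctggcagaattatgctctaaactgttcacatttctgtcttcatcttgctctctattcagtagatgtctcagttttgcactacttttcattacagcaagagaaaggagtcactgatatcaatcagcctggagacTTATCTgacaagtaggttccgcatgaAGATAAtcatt
Fcer1a: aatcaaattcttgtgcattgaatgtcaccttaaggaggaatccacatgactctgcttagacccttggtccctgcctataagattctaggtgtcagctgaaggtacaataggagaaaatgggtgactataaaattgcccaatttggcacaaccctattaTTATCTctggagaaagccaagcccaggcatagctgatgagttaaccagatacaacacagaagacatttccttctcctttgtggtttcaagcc
Il1rl1: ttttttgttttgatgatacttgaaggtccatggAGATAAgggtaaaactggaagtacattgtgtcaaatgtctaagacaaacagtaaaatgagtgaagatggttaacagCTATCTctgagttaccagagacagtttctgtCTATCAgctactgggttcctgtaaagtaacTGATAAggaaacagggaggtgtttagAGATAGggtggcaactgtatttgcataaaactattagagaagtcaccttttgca
Cpa3: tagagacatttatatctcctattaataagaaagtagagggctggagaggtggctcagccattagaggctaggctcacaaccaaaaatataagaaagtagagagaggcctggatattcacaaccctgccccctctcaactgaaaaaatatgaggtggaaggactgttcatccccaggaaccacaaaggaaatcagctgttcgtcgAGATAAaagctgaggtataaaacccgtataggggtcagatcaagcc
The matches of Ms4a2 began 224, 37 and 11 bases before the start, that of Cpa3 46 bases before it and that of Fcer1a 92 bases before it. Those of Il1rl1 were spread along the window, at 217, 141, 110, 80 and 54 bases before the start.

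In the counts, 9 of the 10 genes were higher in every library labelled Alox15-/- than in any WT library, a pattern that 2.74% of the 12700 tested genes had, and Kit was the exception. The same 9 were past the threshold upwards, beside a background of 1.05%. Since the genes were selected on these counts, nothing is read from either count. The summed level of the 10 genes was 245, 416, 212 and 153 CPM in the labelled libraries 1 to 4 and 60.4, 63.6, 66.7 and 87.5 CPM in the WT libraries 1 to 4. Without Kit and Cpa3, the genes with the most WT counts among the 10, the sum of the other 8 was 162, 294, 130 and 86.0 CPM against 8.78, 11.7, 13.9 and 26.9 CPM. In bulk RNA, fewer cells of a type and less RNA per cell cannot be told apart.

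**Figure D1:**
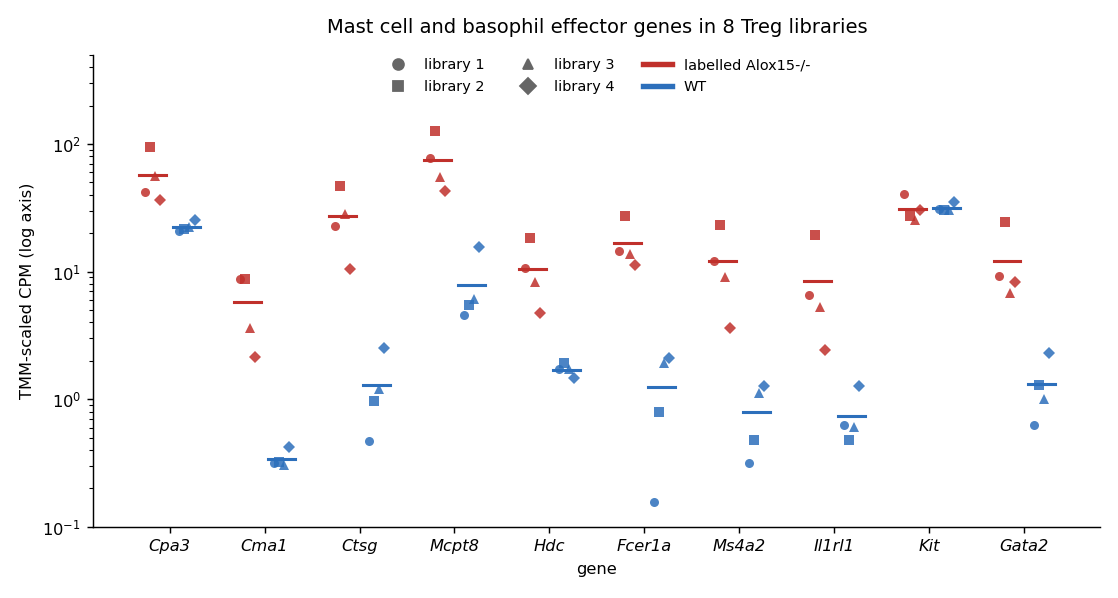
TMM-scaled CPM (log axis) of the 10 genes in each of the 4 libraries labelled Alox15-/- (red) and the 4 WT libraries (blue), with marker shapes for library number and bars for group means. For 9 genes all red points lie above all blue points, whereas for Kit the red points (25.3 to 40.3 CPM) and the blue points (30.3 to 35.3 CPM) overlap.

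Of the granule genes, Cpa3, which codes for the mast cell carboxypeptidase, was the least different. Its level was 42.0, 93.9, 56.5 and 36.1 CPM in the labelled libraries and 20.7, 21.5, 22.5 and 25.4 CPM in WT. Every WT library thus held Cpa3, the groups did not overlap, and the lowest labelled library was 1.42 times the highest WT library. The means were 57.1 ± 26.0 and 22.5 ± 2.06 CPM, a log2 fold change of 1.33 (SE 0.23) or 2.52-fold. Without the labelled libraries 2 and 3 the log2 fold change of Cpa3 was 0.80.

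The other granule proteases were low in WT. Cma1, the chymase of connective tissue mast cells also called Mcpt5, measured 8.69, 8.69, 3.59 and 2.16 CPM against 0.31, 0.32, 0.30 and 0.42 CPM. These WT levels rested on 2 or 3 counts in each library, and the labelled levels on 15 to 36 counts. The labelled libraries 1 and 2 held the most Cma1, no WT library came near the lowest of them, and the log2 fold change was 3.97 (SE 0.55). Ctsg, which codes for cathepsin G, a serine protease of neutrophils as well as mast cells, measured 22.7, 47.0, 28.4 and 10.5 CPM against 0.47, 0.96, 1.21 and 2.52 CPM. Its groups were separate, with 3 to 12 counts in each WT library. The log2 fold change of Ctsg, 4.42 (SE 0.47) or 21.4-fold, was the highest of the 10. Mcpt8, a protease of mouse basophils, was at 78.2, 126, 54.7 and 43.0 CPM against 4.55, 5.45, 6.05 and 15.5 CPM. The WT library 4 stood above the other WT libraries, but below all labelled libraries. Mcpt8 had a log2 fold change of 3.31 (SE 0.37), or 9.91-fold.

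Hdc codes for histidine decarboxylase, the enzyme that makes histamine. Its level was 10.6, 18.2, 8.32 and 4.75 CPM in the labelled libraries against 1.72, 1.92, 1.71 and 1.47 CPM in WT. The WT libraries were close together and the labelled libraries spread 3.83-fold, without overlap, and the log2 fold change was 2.55 (SE 0.38).

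Both receptor chains that are particular to the high-affinity IgE receptor were high in the labelled group. Fcer1a, the α chain that binds IgE, was at 14.5, 27.4, 13.6 and 11.2 CPM against 0.16, 0.80, 1.92 and 2.10 CPM. The groups were apart, the lowest labelled library being 5.35 times the highest WT library, the widest such gap among the 10 genes. Fcer1a had a log2 fold change of 3.67 (SE 0.42), or 12.8-fold. Ms4a2, the β chain that amplifies the receptor's signal, was at 12.1, 23.3, 9.08 and 3.60 CPM against 0.31, 0.48, 1.11 and 1.26 CPM, from 2 to 11 counts in each WT library. Here too the groups did not overlap, and the log2 fold change was 3.82 (SE 0.55), or 14.2-fold.

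Il1rl1 codes for ST2, the receptor for the alarmin IL-33, which mast cells and basophils share with some tissue Tregs and other T cells. It measured 6.52, 19.3, 5.30 and 2.45 CPM against 0.63, 0.48, 0.61 and 1.26 CPM. Of the 10 genes it varied most within the labelled group, with a coefficient of variation of 89.0%, where counting error alone would give 17.2%. The labelled library 4 was 1.94 times the highest WT library, and the log2 fold change was 3.46 (SE 0.61), or 2.68 without the labelled library 2, with testing from 3 libraries.

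Kit, the receptor for stem cell factor that marks mast cells and blood progenitors, did not share the pattern of the other genes. Its level was 40.3, 27.4, 25.3 and 30.4 CPM in the labelled libraries and 30.9, 30.4, 30.3 and 35.3 CPM in WT. The highest and the lowest of these 8 values both belonged to the labelled group. The means of 30.9 ± 6.63 and 31.7 ± 2.38 CPM differed by a log2 fold change of -0.04 (SE 0.15), whose sign changed when single libraries were left out.

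Gata2, the transcription factor of mast cell, basophil and progenitor identity, was at 9.17, 24.4, 6.81 and 8.34 CPM in the labelled libraries against 0.63, 1.28, 1.01 and 2.31 CPM in WT. The labelled library 2 stood far above the rest, and even the lowest labelled library was 2.95 times the highest WT library. Gata2 had a log2 fold change of 3.24 (SE 0.46), or 9.47-fold.

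Among themselves, the genes ranked the libraries in much the same way. The labelled library 2 was the highest of its group for 8 of the 10 genes, with Cma1 and Kit highest in the labelled library 1. Library 4 was the lowest of the labelled group for 8 genes, with Kit and Gata2 lowest in library 3. Within WT, library 4 was the highest for 9 genes, all but Hdc, and library 1 the lowest for 6. The coefficients of variation in the labelled group were 21.5% for Kit and 43.7% to 89.0% for the other 9, against 5.55% to 20.4% from counting error alone.

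To find genes of like pattern, each gene's CPM was divided by its sum over the 8 libraries, and the overlap of these shares with the mean shares of the 10 genes was taken. The mean shares were 20.9%, 37.4%, 16.5% and 10.9% in the labelled libraries 1 to 4 and 2.91%, 3.24%, 3.52% and 4.68% in the WT libraries 1 to 4. Hdc, at 97.1%, and Mcpt8, at 95.0%, were closest to this mean, and Kit, at 62.4%, was farthest from it. The median over 12578 genes with at least 100 counts was also 62.4%. Since the libraries fall into 2 groups, genes that differ between the groups lead such an order by construction.

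The 10 other genes nearest to the pattern were Ccl9 (96.5%), Gzmb (96.2%), Alox5 (94.9%), Csf2rb (94.8%), Emilin2 (94.7%), Csf2rb2 (94.5%), Fgl2 (93.8%), Lilrb4a (93.4%), Ly6c2 (92.6%) and Fcgr3 (92.4%). Ccl9 is a chemokine, Gzmb is granzyme B, a cytotoxic protease, and Fcgr3 is a receptor for IgG. Ccl9 measured 17.1 ± 8.78 CPM in the labelled group and 2.33 ± 0.47 CPM in WT. Ly6c2, a surface protein of monocytes and some T cells, measured 58.2 ± 28.9 and 9.15 ± 0.99 CPM, and Fcgr3 measured 7.19 ± 4.11 and 1.04 ± 0.71 CPM.

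**Figure D2:**
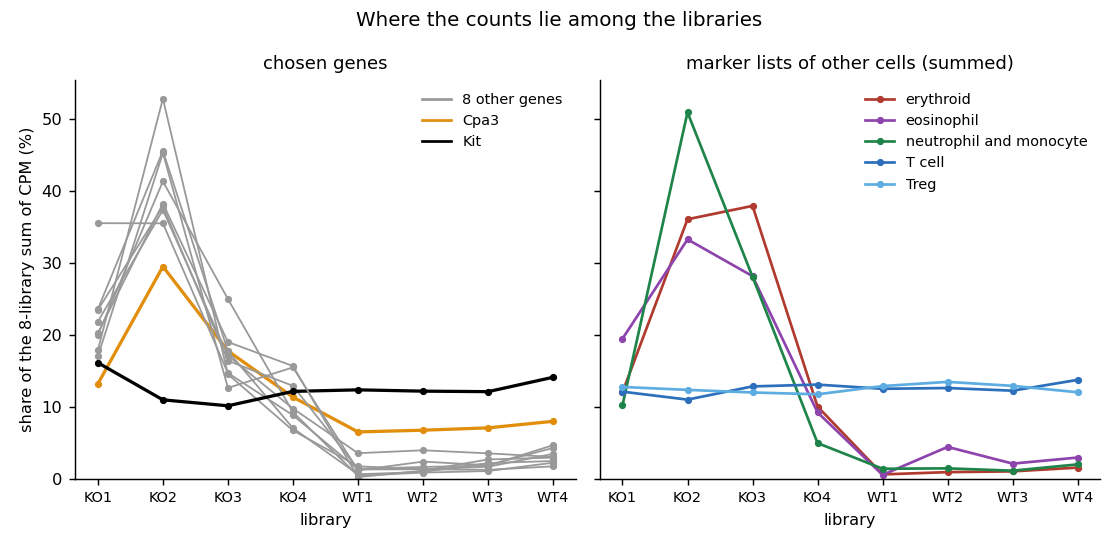
Share of each gene's or list's 8-library sum of CPM found in each library (percent), for the 10 genes on the left and for summed marker lists of other cells on the right, with lines that only join the points. Most genes peak in the labelled library 2 and fall to low shares in WT, Kit runs nearly level, and the erythroid, eosinophil, and neutrophil and monocyte lists are also high in the labelled libraries, whereas the T cell and Treg lists run level.

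Markers of other blood cells moved with the same libraries. Summed over 9 listed erythroid genes, the level was 1112, 3341, 3514 and 928 CPM in the labelled libraries and 55.2 to 143 CPM in WT, and 5 of the 6 tested rose, beside 1.05% of all tested genes. These were the hemoglobin genes Hba-a1, Hba-a2, Hbb-bs and Hbb-bt and the heme synthesis gene Alas2, of which Alas2 had 0 WT libraries at 2 CPM and could be tested only through the labelled group. The 9 eosinophil genes summed to 45.9, 78.4, 66.4 and 21.7 CPM against 1.25 to 10.4 CPM. Both tested genes, Epx and Prg2, were raised, with 2 and 3 WT libraries at 2 CPM. Both thus needed the labelled group to be tested. Prg3, Ear2 and Ear6 were at 0 in WT. Ccr3 went the other way, at 1, 0, 1 and 0 counts against 0, 39, 3 and 0 in WT. The 10.4 CPM was that of the WT library 2. A list of 12 neutrophil and monocyte genes summed to 78.7, 392, 216 and 38.1 CPM against 8.57 to 15.3 CPM, and 5 of its 6 tested genes rose. For all 6 the WT libraries alone did not reach the level for testing. Of these, S100a9 and Ngp, with 0 WT libraries at 2 CPM, could be tested only through the labelled group. Nothing is read from the number of genes that rose in the eosinophil list or in this one. The highest library was number 2 for the neutrophil and eosinophil lists and number 3 for the erythroid list, and number 4 was the lowest for all 3 lists, as it was for 8 of the 10 genes. By contrast, 0 of 8 T cell genes and 0 of 6 Treg genes were past the threshold in edgeR's test (2 and 0 at an unadjusted p under 0.05), and 0 of either in the DESeq2 Wald test. The T cell list summed to 2635 to 3135 CPM in the labelled group and 2933 to 3294 CPM in WT. Of 3 tested B cell genes 1 fell and 2 did not pass, and the single tested genes of the NK cell and the blood progenitor lists did not pass. The 7 megakaryocyte and platelet genes were too low to be tested, with sums of 1.44 to 12.2 CPM in the labelled group and 0.78 to 1.68 CPM in WT. The part of these other cells in the levels of the 10 genes was not tested.

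A wider set of mast cell and basophil genes, none of them among the 10, was then read from the same test. These 7 lists held 82 genes, of which 80 were in the table and 48 could be tested. In edgeR's test 11 of the 48 rose, 0 fell and 22 had an unadjusted p under 0.05 (13 rose and 0 fell in the DESeq2 Wald test), beside backgrounds of 1.05% up and 0.197% down. The median log2 fold change of the 48 was 0.35, with 33 above and 15 below 0. For 12 of the 48 the WT libraries alone did not reach the level for testing. That was so for all of the 11 that rose but Mcpt1, Fcer1g and Csf2rb. Mcpt2, Csf2rb2 and Cd63 had 3 WT libraries at that level, Alox5 had 2 and Alox5ap had 1. Such genes needed the labelled group to be tested, and their calls carry that limit. Of the 11 that rose, Prss34, Il6 and Cd200r3 had 0 WT libraries at that level and entered the test only through the group where they were high, so that they had to differ and their calls support nothing. The same held for Itga2b, which was not past the threshold. The lists were written with earlier results of these data known and so are not independent of them. Leaving out the labelled libraries 2 and 3, those with the highest neutrophil and erythroid sums, left 7 of the 11, and 8 when the level for testing had to be met in 2 libraries only. The calls of Cd200r3, Alox5ap and Il6 were then lost at log2 fold changes of 2.33, 1.89 and 2.19, and Prss34 was kept at 3.92.

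**Figure D3:**
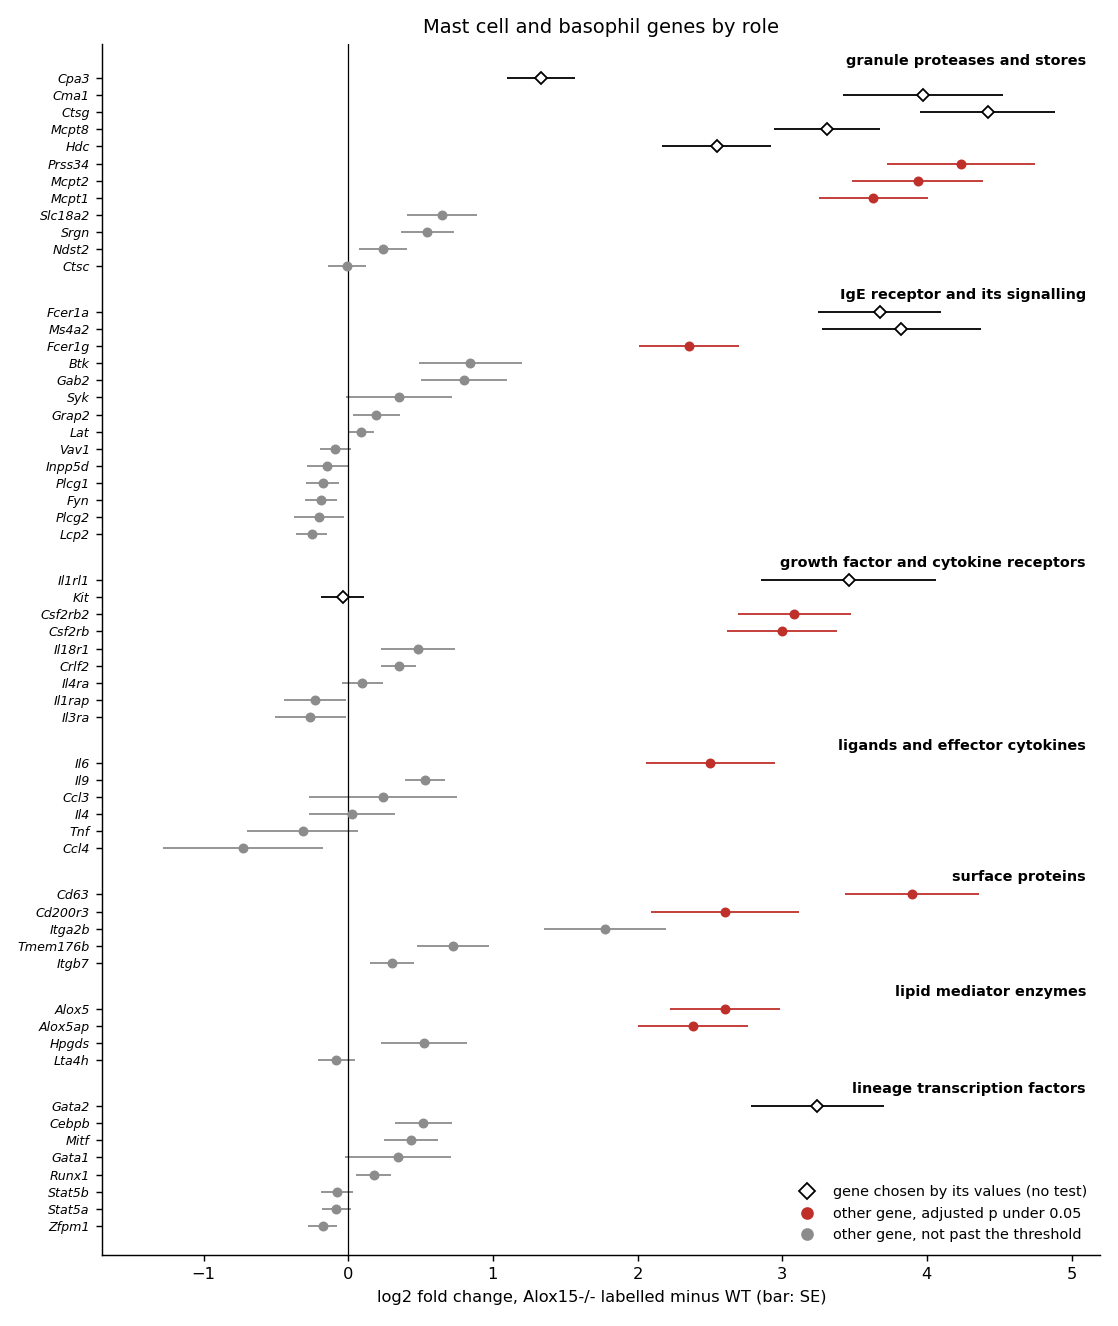
Log2 fold change (libraries labelled Alox15-/- minus WT, bars are SE) of the 10 chosen genes (open diamonds) and the 48 tested genes of the 7 lists (red where the adjusted p was under 0.05, grey otherwise), grouped by role. Red points occur in every list but the transcription factors, and the grey points of the IgE receptor list lie within 1 log2 unit of 0.

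Granule proteases supplied 3 of the 11. Mcpt1 and Mcpt2, the proteases of mucosal mast cells, and Prss34, a protease of basophils and mast cells also called Mcpt11, all had higher values in every labelled library than in any WT library. Mcpt1 measured 44.2, 112, 47.1 and 33.2 CPM against 2.20, 4.16, 6.56 and 5.46 CPM (log2 fold change 3.63, SE 0.38, adjusted p = 6.71e-05). Mcpt2 measured 93.9, 194, 84.9 and 56.4 CPM against 0.94, 5.77, 8.27 and 13.4 CPM (log2 fold change 3.94, SE 0.45, adjusted p = 0.000165). Prss34 measured 17.9, 26.6, 9.46 and 6.04 CPM against 0.31, 0.48, 1.31 and 0.63 CPM (log2 fold change 4.24, SE 0.51, adjusted p = 0.000238), and it was testable only through the labelled group. Without the WT library 3 its log2 fold change was 4.91. As for most of the 10 genes, library 2 was the highest and library 4 the lowest of the labelled group for these 3 proteases. The other 4 tested genes of the list, Slc18a2, Srgn, Ndst2 and Ctsc, did not pass the threshold, at log2 fold changes of 0.65, 0.55, 0.24 and -0.01. They code for the amine transporter that loads histamine, the proteoglycan of the granule, an enzyme of heparin synthesis and the protease that activates granule proteases, and T cells and other leukocytes express several of them.

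Of the connective tissue mast cell genes, Cma1 was described above, and several others were at or near 0. Mcpt4 had 2, 3, 0 and 0 counts in the labelled libraries and 0 in each WT library, so that the groups overlapped. The tryptases Tpsb2 and Tpsab1 had 11 and 3 counts in the labelled group and 2 and 4 in WT, whereas the transmembrane tryptase gene Tpsg1 had 49 and 3. Mrgprb1 and Mrgprb2, of the receptor family through which basic compounds activate mast cells, had 0 counts in the labelled group and 1 each in WT.

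Of the IgE receptor and its signalling, 1 of 12 tested genes rose. Fcer1g codes for the γ chain that the IgE receptor shares with IgG receptors on myeloid cells. It was at 22.0, 43.2, 29.7 and 10.1 CPM against 6.11, 4.32, 4.64 and 5.04 CPM, with a log2 fold change of 2.35 (SE 0.34, adjusted p = 0.00129). With Fcer1a and Ms4a2, all 3 kinds of chain of the receptor were thus higher in each labelled library than in any WT library. The 11 that did not pass include adaptors and enzymes that the T cell receptor uses as well, such as Lat at 445 and 418 CPM, Lcp2 at 163 and 194 CPM and Fyn at 132 and 150 CPM. Over the 12 tested genes the median log2 fold change was 0.00. Lyn and Lat2 of the same list were too low to be tested. They had 70 and 77 counts in the labelled group and 41 and 29 in WT, and their groups overlapped.

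Among receptors other than Il1rl1 and Kit, 2 of 7 tested genes rose, Csf2rb and Csf2rb2, the β chains of the receptors for IL-3, IL-5 and GM-CSF. Csf2rb was at 36.5, 64.9, 31.0 and 15.1 CPM against 2.67, 3.36, 5.65 and 6.30 CPM (log2 fold change 3.0, SE 0.38, adjusted p = 0.000361). Csf2rb2, its IL-3-specific neighbour, was at 32.6, 50.8, 23.5 and 12.7 CPM against 2.20, 1.92, 4.64 and 4.83 CPM (log2 fold change 3.08, SE 0.39, adjusted p = 0.000361). The α chain of the IL-3 receptor, Il3ra, gave 5.50 and 6.40 CPM and did not pass (adjusted p = 0.851), and neither did Il1rap, the partner of ST2, at 7.63 and 8.99 CPM (adjusted p = 0.851).

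The ligands of Kit and ST2, Kitl and Il33, were too low to be tested, with 1 and 12 counts in the labelled group and 3 and 7 in WT. Of 6 tested cytokine genes, 1 rose. Il6 was at 2.90, 5.16, 2.46 and 2.01 CPM against 0.47, 0.80, 0.50 and 0.21 CPM (log2 fold change 2.50, SE 0.44, adjusted p = 0.00681), from 58 and 14 counts per group, and was testable only through the labelled group. Il9, a growth factor for mast cells that T cells cultured with TGF-β can make, had a higher value in each labelled library than in any WT library, at 178 and 123 CPM, and did not pass the threshold (log2 fold change 0.53, adjusted p = 0.101), though it did in the DESeq2 Wald test. Il4 was at 2.82 and 2.80 CPM (adjusted p = 0.993).

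Surface proteins gave 2 of 5 tested genes. Cd63, a tetraspanin of granule membranes that serves as an activation marker of basophils, was at 25.6, 57.0, 28.4 and 10.5 CPM against 0.78, 2.08, 2.32 and 2.73 CPM (log2 fold change 3.90, SE 0.46, adjusted p = 0.000217). Its last 500 bases matched those of a pseudogene, Cd63-ps, over 500 bases at 98.6% identity, and Cd63-ps itself had 74, 132, 94 and 37 counts against 3, 5, 6 and 7, so that reads of the pair may have been split between them. Cd200r3, a receptor of mast cells and basophils, was at 5.79, 7.60, 3.78 and 2.30 CPM against 0.63, 0.16, 0.61 and 1.89 CPM (log2 fold change 2.60, SE 0.51, adjusted p = 0.0163), and it too was testable only through the labelled group. Without the WT library 4 its log2 fold change was 3.21. Its call was lost without the WT library 1, 2 or 3, at adjusted p-values of 0.0765, 0.0597 and 0.0641, and without the labelled library 1 or 2 at 0.0568 and 0.0623 when the level for testing had to be met in 3 libraries.

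Lipid mediator enzymes gave 2 of 4. Alox5, the lipoxygenase that starts leukotriene synthesis, was at 12.6, 26.3, 13.2 and 8.49 CPM against 1.72, 1.12, 2.93 and 3.99 CPM (log2 fold change 2.61, SE 0.38, adjusted p = 0.00129). Alox5ap, its activating protein, was at 8.21, 17.1, 9.46 and 6.04 CPM against 0.94, 1.60, 3.13 and 1.47 CPM (log2 fold change 2.38, SE 0.38, adjusted p = 0.00298). Both again had their highest level in the labelled library 2. Hpgds, which makes prostaglandin D2, and Lta4h did not pass, at log2 fold changes of 0.52 and -0.08.

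None of the 7 tested lineage transcription factors beside Gata2 passed the threshold in edgeR's test or in the DESeq2 Wald test, and 2 had an unadjusted p under 0.05. The largest difference was that of Cebpb, a factor of myeloid cells, at 46.3 and 31.8 CPM (log2 fold change 0.52, SE 0.20, adjusted p = 0.475). Mitf, a factor of mast cells, gave 35.5 and 26.9 CPM, and Gata1 gave 10.3 and 7.67 CPM, with overlapping groups for both. The other listed factors were too low to be tested, and all had more counts in the labelled group than in WT. Spi1 had 54 against 32, Tal1 40 against 7, Lyl1 31 against 7 and Lmo2 30 against 14. Cebpa had 12 against 3 and Gfi1b 10 against 0. The groups overlapped for Spi1, Tal1 and Lmo2 and were separate for Lyl1, Cebpa and Gfi1b. With WT set to 3 counts over the group, Gfi1b was 4.54-fold higher, a value that leaves out the counting error of its 10 counts.

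Cma1, Mcpt8 and Ctsg belong to a cluster of proteases and granzymes that spans 321 kb of chromosome 14 from Cma1 to Gzmb. The annotation places 15 protein-coding genes there, of which 11 were in the table and 7 could be tested. Besides the 3 chosen genes these were Mcpt1, Mcpt2, Gzmb and Gzmc, and all 4 were past the threshold. Gzmb and Gzmc had 0 WT libraries at 2 CPM and so could be tested only because they were high in the labelled group, and nothing is read from the count of 4 against the background of 1.05%. Gzmb measured 9.85 ± 5.13 CPM in the labelled group and 1.39 ± 0.26 CPM in WT (log2 fold change 2.74, SE 0.39, adjusted p = 0.00105). Gzmc, a granzyme that activated T cells can make, measured 4.62 ± 1.73 and 0.71 ± 0.58 CPM (log2 fold change 2.46, SE 0.48, adjusted p = 0.0154). Between the genes that rose lie Cma2, Mcpt9 and Mcpt4, with 2, 1 and 5 counts over the labelled libraries and 0 in WT, and Gzmf, with 9 counts over the labelled libraries and 6 in WT. Summed over the listed genes of the cluster other than the 3, the level was 153, 331, 147 and 97.5 CPM in the labelled libraries and 5.49, 11.9, 18.3 and 20.4 CPM in WT.

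**Figure D4:**
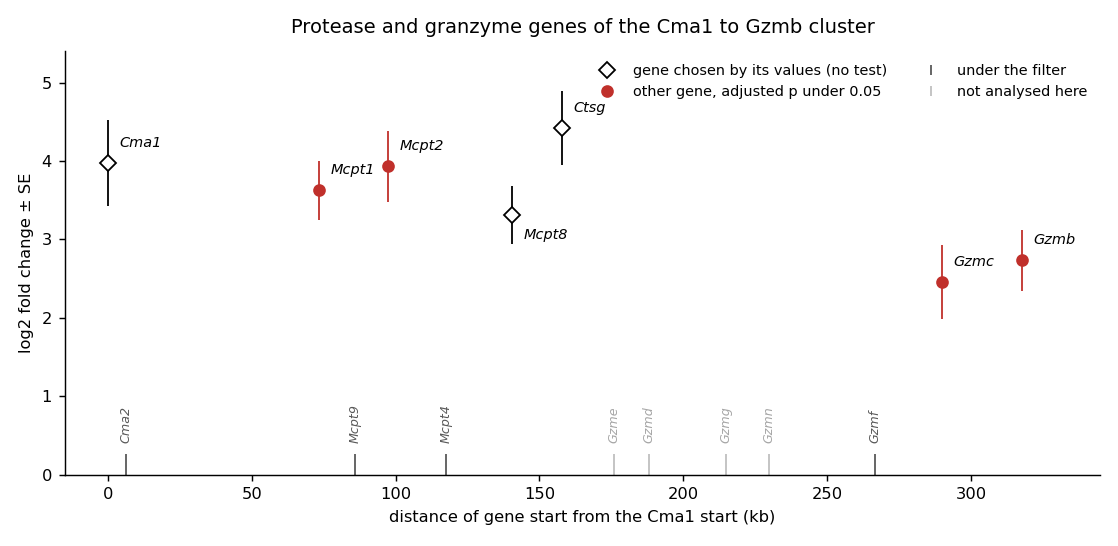
Log2 fold change ± SE of the 7 tested protein-coding genes of the cluster against the distance of each gene start from the start of Cma1 (kb), with open diamonds for the 3 chosen genes, red points for others past the threshold and ticks for genes under the filter or not analysed here. All 7 lie above 2, and the genes under the filter are interspersed with them.

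Reads of some of these genes could have been shared with others. A pseudogene of Cma1, Gm48934, matched its last 500 bases over 295 bases at 96.9% identity, and Alox5ap matched Gm19719 over 107 bases without a mismatch. Counts of these pseudogenes were not analysed here. At the limits used, 90% identity over at least 100 bases, no further match was found for the ends of the 10 genes or of the 11 that rose, the other proteases of the cluster included. Cpa3 and Mcpt8 host a microRNA gene on their own strand, Mir7007 and Mir6949.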

How the data were processed

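RNA of Tregs from 4 samples labelled Alox15-/- and 4 labelled WT was profiled by MACE-seq. The authors deposited whole-number counts per gene symbol, without normalization, from reads cleaned and trimmed beforehand according to the labels. The methods name a MACE kit whereas the labels name a small RNA kit of the same company and stored spleens. The submitters' processing notes name Bowtie, edgeR and GRCm38 with no roles, and versions, counting tool, removal of duplicate reads and use of strand are not given in the sources used here. Without strand, reads of overlapping antisense genes could not be told apart, and reads without molecular identifiers are not independent molecules, so that counting error is a lower limit.

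Each column of the table was assigned to a sample by its name. The filter of the methods, 2 CPM or more in 4 or more libraries, was kept, and genes were tested in edgeR 4.0.16 (R 4.3.3) with TMM scaling, a quasi-likelihood test with group as the only term and Benjamini–Hochberg adjustment over 12700 genes, with a threshold of 0.05. SEs were obtained from the log2 fold changes and their F statistics. The biological coefficient of variation was 14.5%. The steps were tested on simulated data. No pair of libraries of a group agreed within sampling noise. The deviations of same-numbered libraries had correlations of 0.071, 0.156, -0.166 and -0.019. The same number gave the highest correlation in 1 of 4 only, so the numbers were taken as names.

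The 10 genes and all lists were chosen with earlier results of these data known. Besides the 10, the text names the genes of the lists past the threshold, the gene of largest absolute log2 fold change in a list where none passed, the 10 genes of most similar pattern, the genes past the threshold in the protease cluster, the targeted gene and markers at 0 in a group. Other genes with a value, among them Il9, Il4, Lat, Kitl and Mrgprb1, were named after their values were seen, for their role. Positions are from GENCODE on GRCm38 and promoters from RefSeq on GRCm38.p6, whose starts can differ. Copies were sought with blastn 2.17.0. A group at 0 took a floor of 3 counts over the group. Alternatives were DESeq2 size factors or library totals, no filter or edgeR's filterByExpr, the Wald test of DESeq2 1.42.0, the replicate number as a block, and libraries left out. Figures were made in matplotlib 3.10.9 and tables in pandas 2.3.3, under Python 3.11.15.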

Additional observations from a re-analysis of the deposited data

Results flagged for a closer look

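In 42 groups of 4 libraries, the 10 genes and the 11 others that rose in each group, the highest or lowest library was compared with its nearest neighbour, relative to the range of the group. The gap passed Dixon's critical value in 4 of the 42, where chance gives about 1 in 20. The WT library 4 was the outlying library in 3 of them. Its Mcpt8 level was 15.5 CPM against 6.05 CPM in the next WT library, its Cma1 level 0.42 CPM against 0.32 CPM, where each value rests on 2 or 3 counts, and its Kit level 35.3 CPM against 30.9 CPM. Without the WT library 4 the log2 fold change of Mcpt8 was 3.78 in place of 3.31. In the labelled group, Gata2 was at 24.4 CPM in library 2 against 9.17 CPM in the next library, and without library 2 its log2 fold change was 2.69 in place of 3.24.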

How the results depend on the processing

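The log2 fold changes of 9 of the 10 genes stayed above 0 under each of the 20 alternatives that gave them a value, from 0.79 to 1.51 for Cpa3, and from 2.11 (Hdc) to 4.82 (Ctsg) for the other 8. That of Kit, -0.04, changed sign without the labelled library 2 (0.0099, or 0.010 with testing from 3 libraries), without library 3 (0.052, or 0.046), without both (0.151, or 0.148 with testing from 2 libraries) and without the WT library 4 (0.016), and leaving out 1 library gave -0.19 to 0.052. Without both labelled libraries, chosen after seeing the data, Cpa3 was at 0.80 (0.79 with testing from 2 libraries), 60 genes passed (80) and 7 of the listed mast cell and basophil genes did (8, with Cd200r3, Il6 and Alox5ap lost). Leaving out 1 library gave 86 to 172 genes and 8 to 13 listed genes in place of 158 and 11. Without any 1 labelled library Prss34, Il6 and Cd200r3 were no longer in 4 libraries at 2 CPM and could not be tested, and with testing from 3 libraries, also chosen after seeing the data, Prss34 and Il6 passed each time and Cd200r3 without library 3 or 4. With no filter on low counts 388 genes passed (298 higher and 90 lower) and 25 listed genes (24 higher and 1 lower). That fit had an infinite prior degrees of freedom, so that no gene kept a spread of its own, against 8.99 with the filter, and its calls were given no weight. DESeq2 size factors, library totals, filterByExpr and the DESeq2 Wald test gave 159, 148, 160 and 194 genes and 11, 11, 11 and 13 listed genes. The replicate number as a block gave 146 genes and the same 11 listed genes, and only library 2 correlated best with its own number in the other group. Of the 10 genes of most similar pattern, 10 remained with library totals and 8 with at least 50 counts. Depth limits the WT values of the 10 genes other than Cpa3, Mcpt8 and Kit, which rest on 1 to 19 counts in a library.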

Other observations

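Of the mast cell and basophil lists, 32 genes were in the table but under the filter of 2 CPM in 4 libraries. Summed over the 4 libraries of each group, 22 of them had more counts in the labelled group than in WT and 10 had fewer, and by mean CPM 24 were higher and 8 lower. Ptgs1, which makes prostaglandin precursors, had 55 counts against 4 in WT, C3ar1, a complement receptor gene, 36 against 3, and Ltc4s, the leukotriene C4 synthase, 21 against 2. Ptgs2, the other gene of that prostaglandin step, had 10 against 18, and the cytokine genes Il13 and Il3 had 10 against 19 and 11 against 19. Of these WT counts the WT library 4 held 14, 13 and 12, and the labelled library 1 held 10 of the 11 Il3 counts. By median CPM, Ptgs2 was at 0.50 against 0.24, Il13 at 0.40 against 0.39 and Il3 at 0.07 against 0.40. These genes were named after their values were seen, and no test is given for them.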
